A study of Drosophila melanogaster with 2 samples.

Results

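The genes described here encode 35 components and regulators of the spliceosome, the machine that removes introns from pre-mRNA. They were chosen by name, as a list of 35 among the 13945 protein-coding genes of the Ensembl annotation, and the values are the ChIP-seq peaks of the zinc finger protein CG17801 at their promoters. A promoter was counted as bound when the summit of a peak (its highest point) lay within 250 bp of an annotated start site of the gene. Of the 35 genes, 21 (60.0%) had such a peak in the list that passed the irreproducible discovery rate procedure (the IDR list), against 30.4% of all protein-coding genes. The count depended on the reach: within 100 bp of a start site it was 9 (25.7%), against 18.7% of all genes. The peaks were of middling strength and lay about 100 bp upstream of the start site in most cases. In 14 of the 21 (66.7%) the summit was shared with a divergently transcribed neighbour, while 42.4% of all bound genes shared theirs with another gene.

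The chromatin came from ovaries of adult females, of unknown age, of the transgenic Drosophila melanogaster strain CG17801-GFP. That line stably carries an insertion, made by site-specific recombination, that encodes CG17801 with GFP (eGFP in the descriptions) at its C-terminus, and an antibody against GFP was used for the immunoprecipitation. The samples form 1 group of 2 biological replicates, numbered 1 and 3, with no second genotype or treatment. Each replicate list and the list made from both together (the pooled list) held 30000 peaks, and the IDR list held the 6723 strongest peaks of the pooled list. Ovaries hold germline and somatic cells, so a peak cannot be assigned to a cell type, and marker transcripts of the tissue were not measured by this assay. The read depth behind the lists is unknown, and no control immunoprecipitation was compared here. No differential test applies to 1 group, so the values are counts, ranks and distances in the 4 lists, set beside the same values for all genes.

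The spliceosome is assembled anew on each intron from small nuclear ribonucleoproteins (snRNPs). Each is built on a U-rich small nuclear RNA, in most cases with a ring of Sm proteins. U1 snRNP recognises the 5′ splice site, U2AF and U2 snRNP recognise the 3′ end of the intron and the branch point, and the tri-snRNP of U4, U5 and U6 then joins and is remodelled into the catalytic form with the help of the Prp19 complex. SR proteins bind exons and guide the choice of splice sites, and in the fly ovary splicing regulators such as snf are needed for female germline sex determination. CG17801 belongs to the ZAD family of insect zinc finger proteins, named for a domain through which such proteins associate.

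The sequences under 7 of the strongest member peaks show the DNA around the summits, 5 of them between the start sites of divergent genes, B52 next to a start site without such a neighbour and SC35 in an intron. They were read from the Release 6 (dm6) RefSeq genome on the strand of the splicing gene, 5′ to 3′, from 100 bp before to 100 bp after the summit, with exon bases left out. Capitals mark matches to a panel of 6 motifs: TATAAA for the TATA box, TATCGATA for the DRE, GGTCACAC for M1BP motif 1, CANCNCTA for the element Ohler 7, CAGCTG for the E-box Ohler 5 and GAGAGA for the GAGA factor. U2af50 (chrX:16359043-16359142, minus strand) is shown because its peak was the strongest of the 21, and its 100 bases are what remains of the window outside exons, with the summit 1 base beyond it. B52 (chr3R:13661258-13661310, plus strand) is cut in the same way to the 53 bases upstream of its exon. The other windows hold 201 bases with the summit at base 101, namely SC35 (chr2L:12434092-12434292, minus strand), snRNP-U1-C (chr3R:18983683-18983883, minus strand), SmB (chr2L:10426637-10426837, minus strand), SF2 (chr3R:16342005-16342205, minus strand) and Sf3b6 (chr3L:6193202-6193402, minus strand).
U2af50: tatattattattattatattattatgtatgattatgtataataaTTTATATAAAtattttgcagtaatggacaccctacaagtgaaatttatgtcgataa
B52: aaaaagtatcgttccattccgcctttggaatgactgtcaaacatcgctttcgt
SC35: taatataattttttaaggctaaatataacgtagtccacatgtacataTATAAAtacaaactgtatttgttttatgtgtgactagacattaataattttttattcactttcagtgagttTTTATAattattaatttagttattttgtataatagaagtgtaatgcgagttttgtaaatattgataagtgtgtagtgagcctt
snRNP-U1-C: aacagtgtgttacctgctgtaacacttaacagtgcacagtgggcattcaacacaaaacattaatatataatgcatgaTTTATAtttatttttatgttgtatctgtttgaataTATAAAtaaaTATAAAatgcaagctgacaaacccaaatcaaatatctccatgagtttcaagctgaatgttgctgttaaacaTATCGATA
SmB: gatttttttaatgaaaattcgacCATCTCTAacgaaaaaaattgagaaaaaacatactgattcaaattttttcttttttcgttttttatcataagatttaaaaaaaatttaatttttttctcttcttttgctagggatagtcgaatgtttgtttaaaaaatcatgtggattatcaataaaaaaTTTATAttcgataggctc
SF2: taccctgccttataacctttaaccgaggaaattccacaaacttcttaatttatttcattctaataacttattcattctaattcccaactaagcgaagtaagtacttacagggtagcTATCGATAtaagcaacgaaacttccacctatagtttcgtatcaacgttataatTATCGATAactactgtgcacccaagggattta
Sf3b6: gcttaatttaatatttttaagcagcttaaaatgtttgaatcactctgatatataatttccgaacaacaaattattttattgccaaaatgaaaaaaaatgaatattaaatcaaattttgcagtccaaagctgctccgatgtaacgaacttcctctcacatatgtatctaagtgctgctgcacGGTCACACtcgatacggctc

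The U2af50 segment is 82.0% A+T and its capitals are overlapping TATA matches, whereas the B52 segment is 58.5% A+T and holds no match. With exon bases included, the 201 bp windows are 72.1% and 56.2% A+T. That of B52 holds a GAGA match 20 bp from the summit, outside the printed segment. The SmB window is 77.6% A+T, with an Ohler 7 match near its 5′ end and a TATA match towards the gene. The SF2 window holds 2 copies of the DRE, both between the summit and the start site of SF2. In the snRNP-U1-C and Sf3b6 windows the DRE and the M1BP motif lie at the end next to the gene, with their centres 96 and 84 bp from the summit.

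Among the 3 U1 snRNP genes, 2 were bound. snRNP-U1-C, which encodes the protein that stabilises pairing of U1 RNA with the 5′ splice site, had an IDR signal of 334.5, rank 1127 of the 6723 peaks, with the summit 133 bp upstream of its start site on arm 3R. Its peak ranked 984 in replicate 1 (signal 156.4) and 1277 in replicate 3 (signal 184.3), so it was among the strong peaks of both. The gene snf encodes a protein of both U1 and U2 snRNPs and is known for its part in Sex-lethal splicing. Its peak on the X was weaker, with an IDR signal of 146.6, rank 4828, and ranks of 3893 and 5514 in replicates 1 and 3. For snRNP-U1-70K, the U1 protein that SR proteins contact, the strongest promoter peak ranked 6503 in replicate 1, 16021 in replicate 3 and 10953 in the pooled list. None was in the IDR list, and the summits lay 16 bp downstream in replicate 1 and 178 bp downstream in replicate 3.

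Of the 7 Sm core genes, whose products form the ring around most of these small nuclear RNAs, 4 were bound. SmD3 had an IDR signal of 322.9 at rank 1209, with near-equal ranks of 1229 and 1233 in replicates 1 and 3. SmB followed with an IDR signal of 294.7 at rank 1396, but its replicates were further apart, at ranks 687 and 2999 with signals of 190.2 and 112.7. SmD2 (IDR signal 167.6, replicate ranks 4975 and 3782) and SmF (IDR signal 140.5, replicate ranks 6093 and 6882) lay in the weaker part of the list. SmE was present in both replicate lists at ranks 7891 and 6705, and its pooled rank of 7711 left it outside the IDR list. SmD1 had a promoter peak in replicate 1 at rank 3572 and none in replicate 3, and SmG (SNRPG in the annotation) had none in any list. The ring genes thus ranged from strong peaks to no peak.

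The subunits of the U2AF heterodimer differed, with 1 of 2 bound. U2af50 encodes the large subunit, which binds the polypyrimidine tract, and its signal of 587.8 at IDR rank 380 was the highest of the 21. Its peak ranked 467 in replicate 1 (signal 228.1) and 345 in replicate 3 (signal 361.8), with summits 111 and 112 bp upstream. U2af38 encodes the small subunit, which reads the AG at the 3′ splice site. Its promoter peak had pooled rank 12336 and ranks of 8231 and 12681 in the replicates, outside the IDR list.

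Among the 8 U2 snRNP genes 5 were bound, all of them in the SF3B complex that grips the branch point. Sf3b6, for the subunit next to the branch-point adenosine, led with an IDR signal of 282.1 at rank 1507 (replicate ranks 1108 and 2123). Phf5a, for a small zinc finger subunit, had an IDR signal of 221.3 (replicate ranks 3727 and 2034). Sf3b3, a scaffold subunit, had 208.3, but its replicates differed more in rank than those of any other matched member, with rank 8802 and signal 45.5 in replicate 1 against rank 1426 and signal 172.5 in replicate 3. Sf3b1, for the large subunit known from human cancers and branch-point drugs, had a signal of 145.7 (replicate ranks 4390 and 4861), and Sf3b2 had 130.7, the lowest of the 21 (replicate ranks 4243 and 9261). The last SF3B member, Sf3b5, was found in the pooled list alone, at rank 21818. Neither gene of the SF3A complex was bound: Sf3a1 ranked 12579 and 16942 in the replicates and was not in the pooled list, and noi, for the counterpart of SF3A3, had no promoter peak in any list. Sf3a2, an SF3A gene outside the 35, had an IDR promoter peak with a signal of 222.5.

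All 4 genes of the tri-snRNP group were bound, against 30.4% of all genes, at similar and rather low IDR signals between 147.9 and 173.2. Of 9 other tri-snRNP genes, outside the 35, only 3 were bound. Prp8 encodes the core protein of the active site and Prp3 and Prp31 bind U4 RNA, while Prp38 takes part in activation. Each ranked higher in replicate 3 than in replicate 1. Prp8 ranked 4183 against 6571, Prp31 3082 against 9179 and Prp38 3142 against 6681. For Prp3 the summit lay 138 bp upstream in the IDR list and 134 bp upstream in replicate 3 (rank 2153), whereas the replicate 1 promoter peak (rank 9029) had its summit 14 bp downstream of a start site. Their signals had a median percentile of 30.0 among all bound genes, so the peaks were on the weak side. From the strongest peaks of replicate 1 alone, without replicate 3, Prp3 and Prp31 were lost and 2 of the 4 stayed bound.

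Of the Prp19 complex and late factors 1 of 4 was in the IDR list, a share near the 30.4% of all genes. Prp18, a factor of the second catalytic step, had an IDR signal of 194.8 and replicate ranks of 3285 and 2885. The other 3 had promoter peaks in both replicate lists. Prp19, the ubiquitin ligase after which the complex is named, ranked 9523 and 9176. The tetratricopeptide protein gene crn ranked 15073 and 4602, with summits 106 bp upstream in replicate 1 and 22 bp downstream in replicate 3. Its pooled signal of 115.9 lay just under the lowest signal in the IDR list, 116.7. Bx42, the fly SKIP gene, ranked 14663 and 14803 with a summit 197 bp downstream of its start site in the pooled list.

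SR proteins and regulators held several of the strongest peaks, and 4 of 7 were bound. B52, an SR protein gene on arm 3R, had an IDR signal of 400.8 at rank 802, with ranks of 1202 and 707 in replicates 1 and 3. SC35 had 348.6 at rank 1048, with ranks of 1165 and 1125, and SF2, the fly counterpart of SRSF1, had 283.4 at rank 1489, with ranks of 1434 and 1628. SF2 ranked lowest of these 3 in each of the lists. The fourth, tra2, encodes a partner of Transformer in sex-specific splicing. Its IDR signal was 156.6, and its summit 54 bp downstream had no counterpart within 100 bp in replicate 3, where the promoter peak (rank 4394) lay 58 bp upstream. Srp54 had peaks in both replicate lists at ranks 13494 and 10024. Of the SR protein gene x16 a promoter peak was listed in replicate 3 alone, at rank 26151, and Rnps1 (RnpS1 in the annotation), a gene of the exon junction complex, had none in any list.

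**Figure D1:**
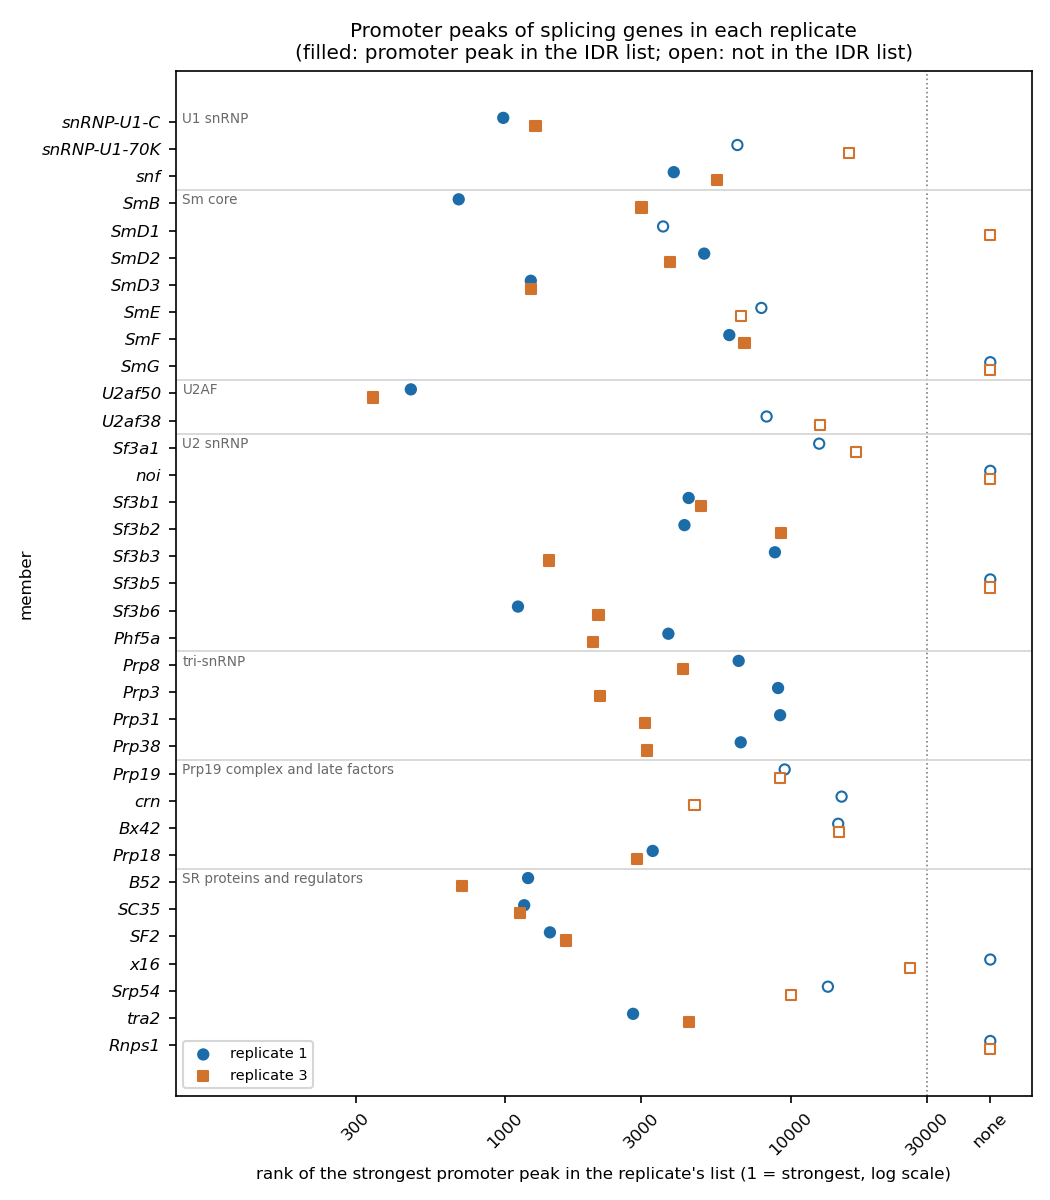
Rank of the strongest promoter peak of each of the 35 genes in the lists of replicate 1 (circles) and replicate 3 (squares), on a log scale with the strongest peaks at the left; filled symbols mark genes with a promoter peak in the IDR list and "none" marks genes without a promoter peak in that replicate. U2af50 is furthest left in both replicates, the tri-snRNP genes lie to the left in replicate 3 of where they lie in replicate 1, and 8 open pairs have a peak in both replicates.

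Across the 4 lists, 30 of the 35 genes had a promoter peak in the pooled list, against 55.4% of all genes. In the replicate 1 list 30 had one (54.0% of all genes), and in the replicate 3 list 30 had one (54.4% of all genes). In both replicate lists 29 had one (49.4% of all genes). Of the 14 genes outside the IDR list, 8 (57.1%) were in both replicate lists, against 28.1% of the 9700 genes without an IDR promoter peak. The IDR count thus leaves out weaker peaks that each replicate had on its own. Each of the 21 bound genes had 1 IDR promoter peak, and 19 of the 21 IDR summits had a summit within 100 bp in both replicate lists, at a median offset of 21 bp in each. For 14 of these 19 the replicate ranks were within 2-fold of each other. Over the 19, Spearman's rho between the replicate ranks was 0.60, given as a description, since the points share the libraries and the control.

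In strength the 21 peaks were ordinary. Their median IDR signal was 194.8, against 190.9 over all bound genes, and their percentiles among bound genes ran from 12.1 to 94.1 with a median of 51.9. The 8 genes snRNP-U1-C, SmB, SmD3, U2af50, Sf3b6, B52, SC35 and SF2, were above the 75th percentile, and U2af50 alone was above the 90th.

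The summits were also set beside the arrangement of the genes. Many fly genes start close to a gene on the opposite strand, and a gene was called head to head when such a start site lay within 500 bp upstream, a measure chosen after the summits had been seen. By it, 25 of the 35 (71.4%) were head to head, against 27.4% of all protein-coding genes. Among head-to-head genes the share bound was 15 of 25 (60.0%) for the splicing genes and 55.4% for all genes. With a reach of 250 bp it was 71.4% against 60.9%, and with 1000 bp 61.3% against 49.3%. Among genes not head to head it was 6 of 10 (60.0%) against 21.1% of all such genes. Giving all genes the members' mixture of head-to-head and other genes would put 45.6% of them in the IDR list, in place of 30.4%. With the number of start sites matched as well it was 43.5%. Start-site number alone gave 27.9%, since 30 of the 35 have 1 annotated start site, and of those 16 (53.3%) were bound, against 24.8% of all genes with 1. Over all genes the bound share was thus higher for head-to-head genes. Among the splicing genes it was 60.0% in both arrangements with the reach of 500 bp, but not with the other reaches. With 250 bp, 11 of 21 splicing genes not head to head (52.4%) were bound, against 25.4% of all such genes. With 1000 bp it was 2 of 4, against 19.7%. With these reaches the bound share of the splicing genes was higher for head-to-head genes too. The part of the arrangement in the result was not tested.

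**Figure D2:**
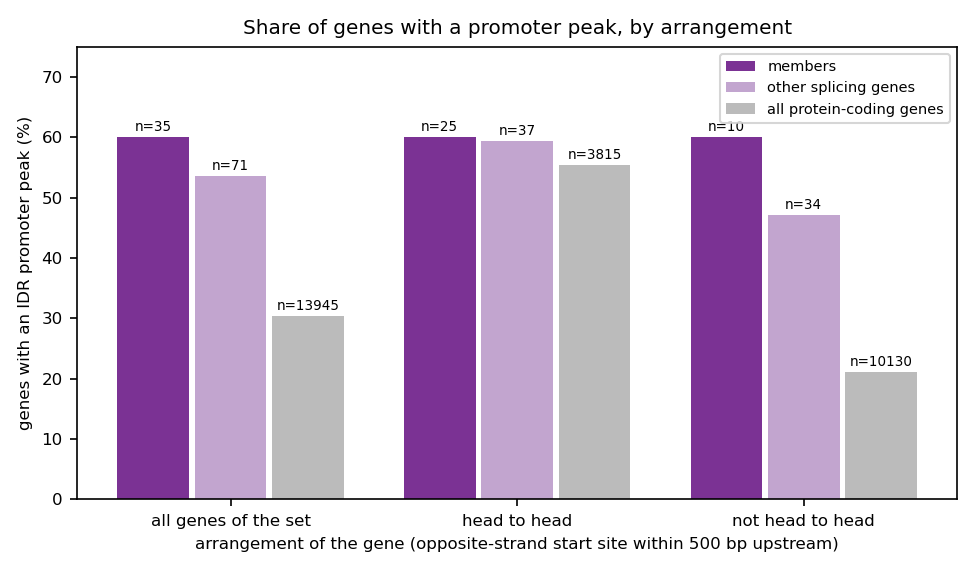
Percentage of genes with an IDR promoter peak among the 35 splicing genes, the 71 other splicing genes and all protein-coding genes (which include both), first for whole sets and then for genes with and without an opposite-strand start site within 500 bp upstream; n is the number of genes behind each bar. Among head-to-head genes the 3 sets stand at 60.0%, 59.5% and 55.4%, and among the others at 60.0%, 47.1% and 21.1%.

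The 15 bound head-to-head genes had their summits at a median of 110 bp upstream, and 14 of them upstream, with Prp38 as the exception at 19 bp downstream. The 6 bound genes without such a neighbour had a median distance of 32.5 bp downstream. SmF (6 bp), Prp8 (18 bp), B52 (47 bp), Sf3b3 (52 bp) and tra2 (54 bp) had the summit downstream, each in a 5′ UTR, and Prp31 had it 184 bp upstream. Over all bound genes the medians were 98 bp upstream for head-to-head genes and 20 bp upstream for the others, where 59.6% of summits were upstream. The distances of the 2 kinds of splicing gene overlapped, and the difference was not tested. Taking all 21 together, 14 (66.7%) had the summit 50 to 200 bp upstream, against 46.4% of all bound genes. These 2 shares were not matched for arrangement. Of the 21, 71.4% were head to head, against 49.8% of all bound genes.

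**Figure D3:**
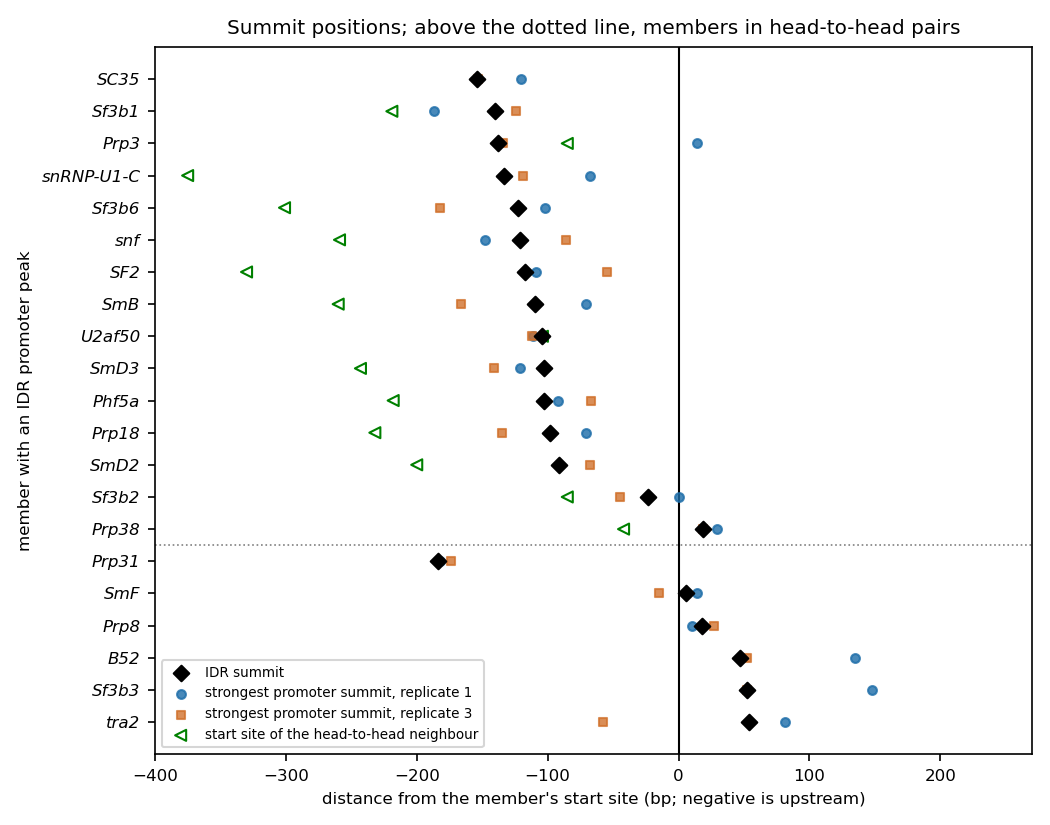
Distance in bp of the promoter summit from the nearest start site of each of the 21 bound genes, negative upstream, for the IDR list (diamonds), replicate 1 (circles) and replicate 3 (squares), with the start site of the head-to-head neighbour as an open triangle (not drawn for SC35, whose distance is taken from another start site than the one next to eRF3). Above the dotted line, 14 of 15 diamonds lie left of 0 and mostly between the gene and its neighbour; below it, 5 of 6 lie right of 0.

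In 12 of the 15 pairs (80.0%) the summit lay between both start sites, against 61.4% of all bound head-to-head genes. The median gap was 227 bp, near the 232 bp of all such genes. The summit of SmB lay 110 bp from its own start site and 150 bp from that of KdelR, the endoplasmic reticulum retention receptor. For snf the summit was 121 bp from its own start site and 138 bp from that of Cdk7, a kinase of the transcription factor TFIIH. For SmD3 it was 103 bp from its own and 140 bp from that of Oda, the ornithine decarboxylase antizyme. Such summits near the middle of the gap cannot be assigned to a gene of the pair. At U2af50 the summit fell on the start site of PIG-Q, a gene of GPI anchor synthesis, 104 bp upstream of U2af50. At Prp3 it fell 53 bp inside Mi-2, which encodes a chromatin remodeller, and Nle had the nearest start site for the summit at Sf3b1. These 3 genes were the ones for which the nearest start site belonged to the neighbour. The gene's own start site was nearest for 85.7% of bound members, against 79.8% of all bound genes.

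Every bound head-to-head splicing gene had a bound neighbour, and 14 of the 15 shared the summit with it. The other partners were gukh at snRNP-U1-C, CG18048 at SmD2, CG17219 at Sf3b2, Tnpo (a nuclear import receptor) at Sf3b6, CG31638 at Phf5a, shrb (an ESCRT-III subunit) at Prp38, CG6013 at Prp18 and pad, itself a ZAD zinc finger gene, at SF2. SC35 and eRF3, a translation release factor gene, had separate summits. That of SC35 lay in an intron, 154 bp upstream of an internal start site, and a second peak with a signal of 240.3 lay at the start site of eRF3. Over all bound members 66.7% shared the summit with another gene, against 42.4% of all bound genes. A shared summit makes the neighbour bound by construction, so the count describes the promoters and is no separate observation on the neighbours.

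Among the 10 head-to-head genes outside the IDR list, 6 had a neighbour that was not bound either, namely SmD1 with Ptp69D, SmE with CG34132, U2af38 with Stip1, Sf3b5 with CG11986, Prp19 with rswl and Srp54 with Etl1. In the other 4 the IDR peak was on the neighbour's side only. Outside the IDR list, Bx42 had promoter peaks of its own in the pooled and both replicate lists, and x16 had one in replicate 3. The nearest IDR summit was 344 bp from the start of noi, at the promoter of Vha26, a subunit of the vacuolar ATPase. It was 457 bp from Bx42 at Arfrp1, 555 bp from Rnps1 at mura and 811 bp from x16 at Hrb27C, an hnRNP gene. With a reach of 500 bp in place of 250, noi and Bx42 would count as bound.

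Peaks elsewhere in the genes were counted where the summit lay over 250 bp from any start site. In the IDR list 1 of the 35 genes had a peak elsewhere in the gene, against 9.02% of all genes. It lay in an intron of x16 on arm 2L (signal 117.8, rank 6629), ranked 13292 in replicate 1 and 5010 in replicate 3, and was 388 bp from the start site of nop5, a snoRNP gene nested in x16. A stronger peak, with a signal of 236.2, sat at the start site of nop5 itself. In the pooled list 5 of the genes had a peak elsewhere, against 28.9% of all genes. In the replicate 1 list it was 6, against 30.0%, and in the replicate 3 list 10, against 29.9%. The SF2 gene body held a pooled peak with a signal of 88.0 at rank 9531, and both replicate lists had it, at ranks 7881 and 10690. Sf3b3 had an intronic peak in the pooled list at rank 19245, with summits within 100 bp in replicate 1 (rank 28210) and replicate 3 (rank 13620), far below its promoter peak in the pooled and replicate 3 lists.

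By chromosome arm, 5 of 6 members on 2R, 4 of 5 on 3L, 5 of 9 on 3R, 5 of 10 on 2L and 2 of 5 on X were bound. The shares over all genes lay between 27.6% on 2L and 31.7% on X for these 5 arms, so the arms differed little overall. The 2 on X were U2af50 and snf, and crn, Bx42 and SmG were not.

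The DNA at the summits was rich in A and T. The 201 bp windows at the 21 summits had a median A+T content of 65.7%, from 49.3% at SmD3 to 79.6% at Prp18, against 62.2% over the summits of all bound genes and 58.7% over windows at the first start site of every gene. Of the 6 motifs, the TATA box consensus TATAAA was in 10 of the 21 windows (47.6%), against 29.2% of 3320 other bound promoter summits and 26.9% of 19252 start-site windows. That short A+T-only string is frequent in A+T-rich DNA, and no allowance was made for composition. The DRE (TATCGATA, known as the site of the factor Dref) was in 3 windows (14.3%, against 11.0% and 6.45%), and M1BP motif 1 (GGTCACAC, known as the site of M1BP, also a ZAD zinc finger protein) in 2 (9.52%, against 7.62% and 5.68%). The E-box CAGCTG was in 5 (23.8%, against 16.3% and 13.4%), Ohler 7 (CANCNCTA) in 5 (23.8%, against 16.5% and 11.0%) and GAGAGA in 3 (14.3%, against 10.7% and 9.74%). With so few windows, a difference of 1 or 2 windows moves these shares by several percentage points.

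Windows centred on the start sites in place of the summits gave a different order. The 35 genes have 42 start sites, and within 100 bp of them the DRE was found at 9 (21.4%), against 6.41% of 19210 start sites of other genes and 11.2% of 5420 start sites of other head-to-head genes. M1BP motif 1 was also found at 9 (21.4%), against 5.65% and 9.96%. Counted by start site, bound and unbound members held each of these motifs at the same share, 21.4%, from 6 of 28 and 3 of 14. The 28 start sites belong to 21 bound genes, since all 5 members with 2 or more start sites were bound. A bound gene can thus count more than once, and the equal share does not hold for genes as the unit. Measured to the centre of the motif, the DRE was nearest to the start sites of snf (5 bp upstream) and of crn (6 bp upstream), which was outside the IDR list. The M1BP motif was nearest at SmE (9 bp upstream), also outside the list, and at Sf3b1 and Phf5a (14 bp upstream and 14 bp downstream). The TATA consensus, at 26.2% of member start sites, was near the 26.9% of other genes, and it was found at 10 of 28 start sites of bound and 1 of 14 of unbound members. Within 250 bp the order turned, with 17 of 28 (60.7%) and 10 of 14 (71.4%). A match to a motif is a description of the letters only.

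**Figure D4:**
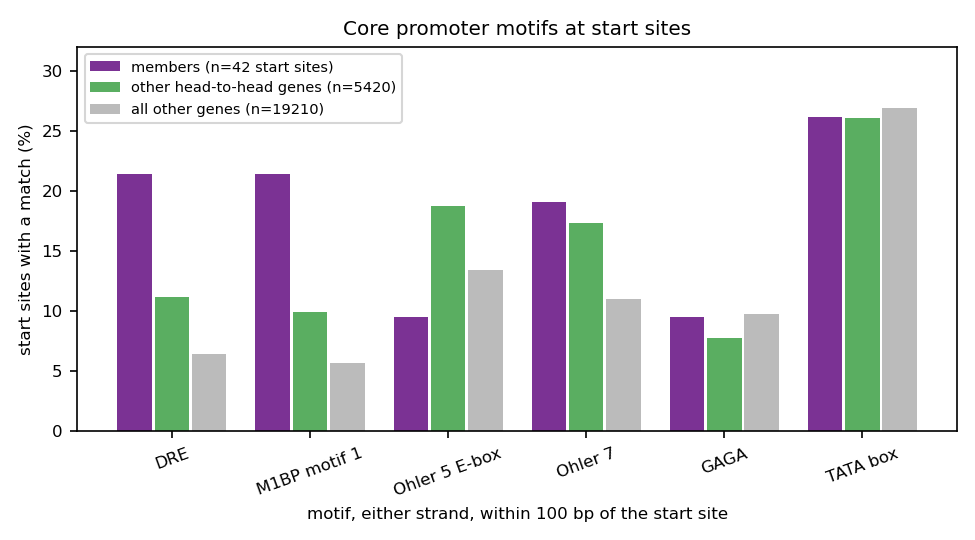
Percentage of start sites with a motif match on either strand within 100 bp, for the 42 start sites of the splicing genes, 5420 of other head-to-head genes and 19210 of all other genes. The DRE and M1BP motif 1 each stand at 21.4% for the splicing genes, above both comparison sets, and the other 4 motifs lie closer to them, with the E-box lower at 9.52%.

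The rest of the splicing machinery was bound at a similar share. Of 71 other splicing genes, 38 (53.5%) had an IDR promoter peak, against 30.4% of all genes. Giving all genes the arrangement and start-site number of these 71 would put 41.45% of them in the IDR list. In both replicate lists 59 of the 71 had a promoter peak, against 49.4% of all genes. The 38 bound ones had a median signal percentile of 44.6. The strongest was mbl, for the Muscleblind splicing regulator, with a signal of 489.9 at IDR rank 562 and ranks of 600 and 568 in replicates 1 and 3. SR proteins and their kinases had 4 of 6 bound, led by SRPK (signal 284.0). The hnRNP and other regulators had 11 of 16, with sqd, for an hnRNP of oskar and gurken mRNA localisation, at 241.0 after mbl. Genes of sex determination splicing had 4 of 6, with spen at 250.9 and Sxl, the master switch of female identity, at 193.8. The groups with the lowest shares were the LSm proteins, with 1 of 4 (LSm3, signal 178.8), and the other tri-snRNP genes, with 3 of 9, led by Dim1 at 234.3. The Prp19 complex and late factors had 4 of 11, led by Cdc5 at 273.5, and these 3 groups stand near the 30.4% of all genes. Genes of snRNP assembly had 3 of 5, with Smn, for the survival motor neuron protein, at 239.9. The exon junction and export genes had 3 of 6, led by CG7483 at 198.2, and the other U1 and U2 snRNP genes had 5 of 8.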

How the data were processed

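CG17801-GFP was profiled by anti-GFP ChIP-seq in ovaries of adult females, as biological replicates 1 and 3 of 1 group, with a fragment size range of 200 to 800 bp per the labels. The authors deposited narrowPeak lists on dm6. Peaks were called for each replicate, and for both together, against a control, and the other 3 lists gave the IDR list, per the file headers (the deposited text that comes with each sample). The sources used here name neither the aligner nor the peak caller. The signal of each peak is as the authors gave it, on an unstated scale, and was used only to rank and describe peaks within a list. The deposited −log10 q-value is constant in the IDR list and was not used for ranking. Read depth is unknown, so no counting interval can be given.

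Genes and start sites came from Ensembl release 115, whose coordinates are those of dm6. Of the 35 genes 33 matched by symbol and 2 by synonym, and 8 names of the other splicing list found no match. A summit counted for every start site within 250 bp. Summits within 100 bp were matched between lists. A gene counted as having a peak elsewhere when a summit lay in it and over 250 bp from any start site. Motif letters were searched on both strands. Shares among all genes weighted to the arrangement and start-site number of the members, or of the other splicing genes, were computed as descriptions, and no test was made. Named genes are all 35, up to 4 other genes of strongest signal in each role, and genes sharing a summit with a bound member, except that 1 gene is not reported here. Neighbours of unbound members, other genes near a described peak and Hrb27C were named after their values had been seen. The members and lists were chosen with earlier results of these data known. On simulated data, each summit planted within 250 bp of a start site was found at its planted distance. Whether summits planted further away were wrongly assigned was not checked. The software was matplotlib 3.10.9, scipy 1.17.1, pandas 2.3.3 and numpy 2.4.6 under Python 3.11.15. Alternatives varied the reach around start sites, the strength of peaks, the replicate and the motif window.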

Additional observations from a re-analysis of the deposited data

How the results depend on the processing

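The count of bound splicing genes depended on the reach around start sites. Within 100 bp, 9 of the 35 (18.7% of all genes) and 23 of the 71 others were bound, because 12 of the 21 summits lie further away. In the same setting the members in both replicate lists fell to 12 (29.7% of all genes), the median percentile to 39.4, the median distance turned to 18 bp downstream since the summits further upstream are dropped, and 2 members had a peak elsewhere. With a reach of 500 bp no member had a peak elsewhere (0), while 23 members and 41 others were bound, against 34.0% of all genes. In the stronger part of the IDR list (its upper 50 percent by signal, a share that lowers every count by construction) 11 members (17.1% of all genes) and 19 others were bound. Among the strongest peaks of each replicate, as many as the IDR list holds, 16 members had a promoter peak in both (23.7% of all genes). From the strongest peaks of 1 replicate alone, 20 to 21 members and 31 to 40 others were bound, against 29.4% to 29.8% of all genes. In these settings the median percentile ran from 43.0 to 51.7, the median distance from -86 to -81 bp, and 0 to 1 members had a peak elsewhere. Without replicate 1, Sf3b2 and SmF were lost and SmE and crn gained. Without replicate 3, Prp3, Prp31 and Sf3b3 were lost, along with the peak in x16, and SmD1 and snRNP-U1-70K gained. Counting only the nearest start site left 18 members and 29 others, against 24.6% of all genes. Any motif of the panel was found in 11 windows with 50 bp on each side (52.4%, against 41.0% of other bound summits). This was in place of 17 with 100 bp (81.0%, against 65.8%). With 150 bp on each side the DRE and M1BP motif 1 each rose to 7 windows (33.3%), against 14.7% and 11.4% of other bound summits. A reach of 250 bp for head-to-head genes, chosen after seeing the data, gave 14 members (14.2% of all genes), and 1000 bp gave 31 (36.2%). No paired analysis was possible because there is 1 group. Both replicates share a control file and an unknown depth, which limits what an absent peak shows.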
